A study of Mus musculus with 6 samples.

Results

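The genes described here are 8 genes of antigen presentation on major histocompatibility complex (MHC) class II molecules, read from RNA-seq of macrophages grown from mouse bone marrow (BMDMs). They were taken by name from the 55401 genes of the deposited matrix: H2-Aa, H2-Ab1, H2-Eb1, Cd74, Ciita, H2-DMa, H2-DMb1 and H2-DMb2. All 8 were found by Ensembl identifier, and all 8 passed the filter on low counts. The marrow came from C57BL/6 mice. The cells of 3 libraries had received an siRNA against Piezo1, a mechanically gated cation channel (siPiezo1), and those of 3 libraries a negative-control siRNA (siNC). Cells of both groups were then stretched for 4 h, so the comparison is of siPiezo1 with siNC under stretch. The study asked how Piezo1 promotes macrophage proliferation under mechanical load. The labels name no added cytokine, and nothing in them says whether replicates were separate cultures or animals.

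An MHC class II molecule is a pair of an alpha and a beta chain that shows peptides from endosomes to CD4+ T cells. The invariant chain, encoded by Cd74, fills the groove of a new pair and steers it to endosomes. Proteases there trim it to a short remnant, which the DM molecule exchanges for peptide. Transcription of these genes depends on the coactivator CIITA, which in macrophages is induced mainly by interferon gamma. CIITA binds no DNA itself and acts through factors bound at the X and Y boxes of class II promoters.

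The libraries held 67058765 to 75052745 estimated counts in siPiezo1 and 61086684 to 73573829 in siNC, or, at 3.75 to 3.77 counts a fragment, 17.8 to 19.9 × 1e6 fragments in siPiezo1 and 16.2 to 19.5 × 1e6 in siNC. Levels are given as CPM, counts scaled to a library total of 1e6 after TMM correction for composition. Piezo1, the siRNA target, stood at 111, 109 and 113 CPM in siPiezo1 and at 180, 285 and 189 CPM in siNC replicates 1, 2 and 3. It was lower in every siPiezo1 library, and the log2 fold change, -0.97 ± 0.18, did not pass the test (SE, Benjamini-Hochberg adjusted p = 0.744, edgeR quasi-likelihood). Piezo1 did pass under 2 of the 15 alternatives listed with the methods. Macrophage markers were abundant, and Lyz2, the lysozyme gene, alone held 25596 to 26819 CPM in siPiezo1 and 20623 to 24964 CPM in siNC. The library siNC 2 lay away from the rest. Its log2 CPM across genes correlated at no more than 0.951 with any other library, whereas each of the other 5 had a partner at 0.964 to 0.969. The neutrophil markers summed to 3177 CPM in siNC 2, against 595 to 617 CPM in siPiezo1 and 628 and 674 CPM in the other siNC libraries, and their part in the results below was not tested.

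Promoter stretches are shown because X and Y boxes are the elements through which CIITA is known to act. RefSeq's table (GRCm38.p6) holds promoters of 5 of the 8 genes, from 250 bases before to 50 after the start, and none of H2-Ab1, Cd74 or Ciita. Motifs were searched on both strands and were chosen with these sequences in view. They were the Y box core GATTGG, the X and X2 core AACNGATGA and the X2-like cyclic AMP element TGACGTCA, none of which overlapped another in the stretches printed. In these stretches, on the strand of the gene, capitals mark the X or X2 motif first and the Y box core after it.
H2-Aa, chr17:34287852-34287917, minus strand: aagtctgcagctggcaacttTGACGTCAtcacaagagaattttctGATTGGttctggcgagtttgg
H2-Eb1, chr17:34305758-34305827, plus strand: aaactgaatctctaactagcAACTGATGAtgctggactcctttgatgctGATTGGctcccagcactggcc
H2-DMb1, chr17:34153079-34153149, plus strand: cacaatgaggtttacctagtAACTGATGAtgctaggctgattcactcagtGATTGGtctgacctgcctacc
H2-DMb2, chr17:34145108-34145178, plus strand: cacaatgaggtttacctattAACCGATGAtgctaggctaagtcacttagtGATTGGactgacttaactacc

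In these 4 promoters 17 to 21 bases lay between the X or X2 motif and the Y box core. Of 32851 promoters in the table, 16.1% held the Y box core, 0.648% the X and X2 core and 1.79% the cyclic AMP element. An X or X2 motif followed within 40 bases by the Y box core was present in 23 of them (0.07%), the 4 above included. For this pair, unlike the single motifs, only the strand of the gene was read. Neither of the 2 promoters listed for H2-DMa held that pair. The stretches of H2-DMb1 and H2-DMb2 were identical at 62 of 71 bases (87.3%). A match describes these letters and does not show that a factor was bound.

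Class II transcripts were scarce in all 6 libraries. Per kilobase of mRNA, H2-DMb1 averaged 13.8 ± 1.25 CPM in siPiezo1 and 11.8 ± 2.35 CPM in siNC (SD, n = 3 each), the highest mean of the 8 genes. Cd74 came next with 10.3 ± 1.74 and 9.06 ± 1.20 CPM per kilobase in siPiezo1 and siNC, with libraries all below H2-DMb1 in siPiezo1 but overlapping it in siNC. H2-DMa (6.31 ± 0.633 in siPiezo1, 6.18 ± 1.44 in siNC) and H2-Ab1 (7.07 ± 1.31 in siPiezo1, 3.65 ± 0.975 in siNC) followed, and their libraries overlapped in both groups. The means of H2-DMb2, H2-Aa and H2-Eb1 lay between 0.92 and 1.89 CPM per kilobase. H2-DMb2 and H2-Aa overlapped in both groups, and every H2-Aa library was above every H2-Eb1 library of its group. Ciita was lowest at 0.0812 ± 0.0537 in siPiezo1 and 0.0386 ± 0.0374 in siNC (SD, n = 3). By contrast H2-K1, a class I heavy chain gene, averaged 781 ± 67.5 CPM per kilobase in siPiezo1 and 668 ± 273 in siNC (SD, n = 3). In bulk RNA, fewer expressing cells and less RNA per cell cannot be told apart.

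**Figure D1:**
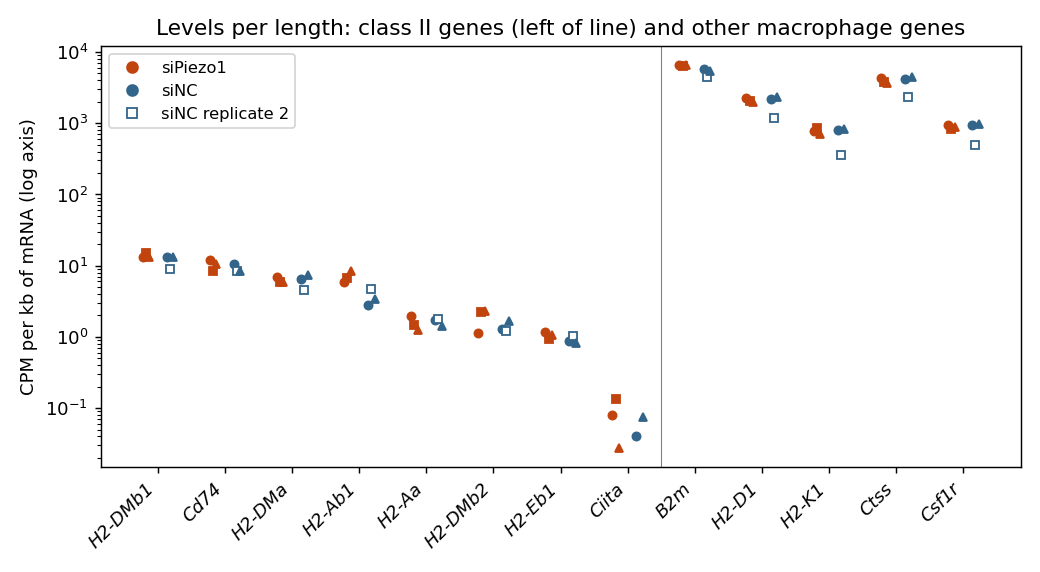
CPM per kilobase of mRNA on a log axis for the 8 class II genes and 5 other macrophage genes, 1 point per library (siPiezo1 left, siNC right, siNC replicate 2 open). Every class II gene lay below 16 CPM per kilobase, while H2-K1 held 354 or more in each library; the Ciita value of 0 in siNC 2 cannot be drawn on this axis.

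Of the 8 class II genes, 0 passed the threshold of an adjusted p of 0.05. Over all 15959 genes tested, 0% were called higher and 0.00627%, or 1 gene, lower in siPiezo1. Without adjustment, 1 member had a p under 0.05, H2-Ab1, higher in siPiezo1, where 2.52% of all genes were higher and 2.41% lower. limma-voom also called 0 members, as did DESeq2, which called 0.288% of all genes higher and 0.263% lower. At an unadjusted p under 0.05 DESeq2 had 1 member, H2-Ab1, among the higher genes (3.06% of all genes, with 3.26% lower). Fitted log2 fold changes were above 0 in 7 of the 8, with a median of 0.22, against 48.0% above 0 and a median of -0.01 over all genes. Without siNC 2 they were above 0 in 6 of the 8, with a median of 0.21, against 50.5% and a median of 0.00 over the genes tested both ways. In that fit 0 members passed, while 0.645% of genes were called higher and 0.45% lower, and 1 member, H2-Ab1, had an unadjusted p under 0.05 (higher for 7.54% of genes, lower for 6.71%). Groups that did not overlap occurred for 1 of the 8, again H2-Ab1 and higher in siPiezo1, and for 6.24% of all genes in that direction.

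H2-Ab1 and H2-Aa encode the beta and alpha chains of I-A, the class II pair that C57BL/6 mice express, and neither passed the test. H2-Ab1, the beta chain, stood at 7.21, 8.19 and 10.3 CPM in siPiezo1 and at 3.42, 5.73 and 4.13 CPM in siNC. Each siPiezo1 library was above each siNC library, and siNC 2 was the highest of its group. Mean H2-Ab1 in siPiezo1 amounted to 193% of that in siNC, with 8.57 ± 1.59 CPM in siPiezo1 and 4.43 ± 1.18 CPM in siNC (SD, n = 3 each). On the log2 scale the change was 0.95 ± 0.26 (SE, unadjusted p = 0.0082, Benjamini-Hochberg adjusted p = 0.885, edgeR quasi-likelihood). By unadjusted p it was number 146 of the 15959 genes. Without siNC 2 it was 1.18 ± 0.23 (SE, Benjamini-Hochberg adjusted p = 0.0583, edgeR quasi-likelihood), so the difference was larger without that library, though still short of the threshold. These values rest on 138, 164 and 184 fragments in siPiezo1 and 55.2, 115 and 73.6 in siNC.

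H2-Aa, the alpha chain that pairs with H2-Ab1, stood at 2.21, 1.67 and 1.41 CPM in siPiezo1 and at 1.93, 2.01 and 1.61 CPM in siNC. The groups overlapped, and the highest and the lowest value were both in siPiezo1. Its log2 fold change was -0.07 ± 0.30 (SE). Per kilobase, H2-Ab1 transcripts were 3.04, 4.56 and 6.83 times as abundant as H2-Aa transcripts in siPiezo1, against 1.65, 2.65 and 2.38 times in siNC. The ratio did not overlap between groups, and the difference of its log2 means was 1.06, or 1.20 without siNC 2. An exact two-sided permutation test gave p = 0.1, the smallest that 3 against 3 libraries allow, and 0.233 after Benjamini-Hochberg adjustment over 7 ratios, which were chosen after the values were seen.

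**Figure D2:**
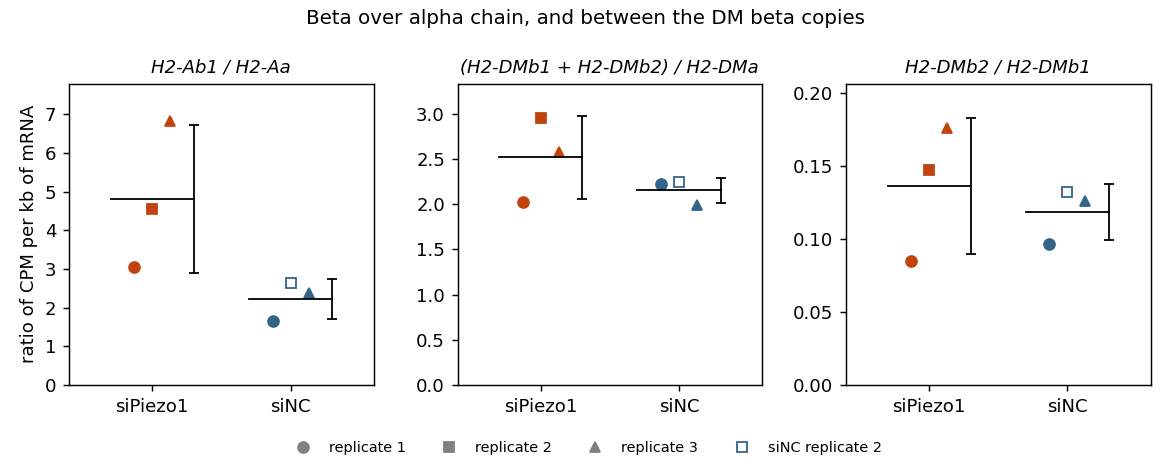
Ratios of CPM per kilobase by library, siPiezo1 left and siNC right, with the mean (line) and SD (bar) of 3 libraries. The H2-Ab1 to H2-Aa ratio is 3.04 or more in siPiezo1 and 2.65 or less in siNC, while the ratios within DM overlap between the groups.

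H2-Eb1 encodes the beta chain of I-E, the other class II pair. It stood at 1.97, 1.54 and 1.81 CPM in siPiezo1 and at 1.48, 1.73 and 1.39 CPM in siNC, with overlap and a log2 fold change of 0.21 ± 0.28 (SE). The alpha chain of I-E is a pseudogene in C57BL/6 (annotated as H2-Ea-ps), and it was listed at 0 counts in all 6 libraries. H2-Ab1 stood above H2-Eb1 per kilobase by 5.04, 7.32 and 7.85 times in siPiezo1 and by 3.18, 4.55 and 4.09 times in siNC, again without overlap (exact permutation p = 0.1, adjusted 0.233 over the 7 ratios). H2-Eb1 over H2-Aa, at 0.603, 0.622 and 0.87 in siPiezo1 and 0.52, 0.582 and 0.582 in siNC, gave the same p. The longest H2-Eb1 transcript shares 201 bases with H2-Ab1 at 89.1% identity, and H2-Aa had no such match.

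Cd74, the invariant chain, stood at 16.8, 11.9 and 14.8 CPM in siPiezo1 and at 14.7, 11.8 and 11.8 CPM in siNC. The groups overlapped. The log2 fold change was 0.18 ± 0.18 (SE, unadjusted p = 0.345, Benjamini-Hochberg adjusted p = 0.991, edgeR quasi-likelihood). It was 0.06 without siPiezo1 1 and 0.30 without siPiezo1 2. Relative to Cd74, H2-Ab1 was at 0.50, 0.80 and 0.81 per kilobase in siPiezo1 and at 0.27, 0.56 and 0.41 in siNC, with siNC 2 above the lowest siPiezo1 value (exact permutation p = 0.2).

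**Figure D3:**
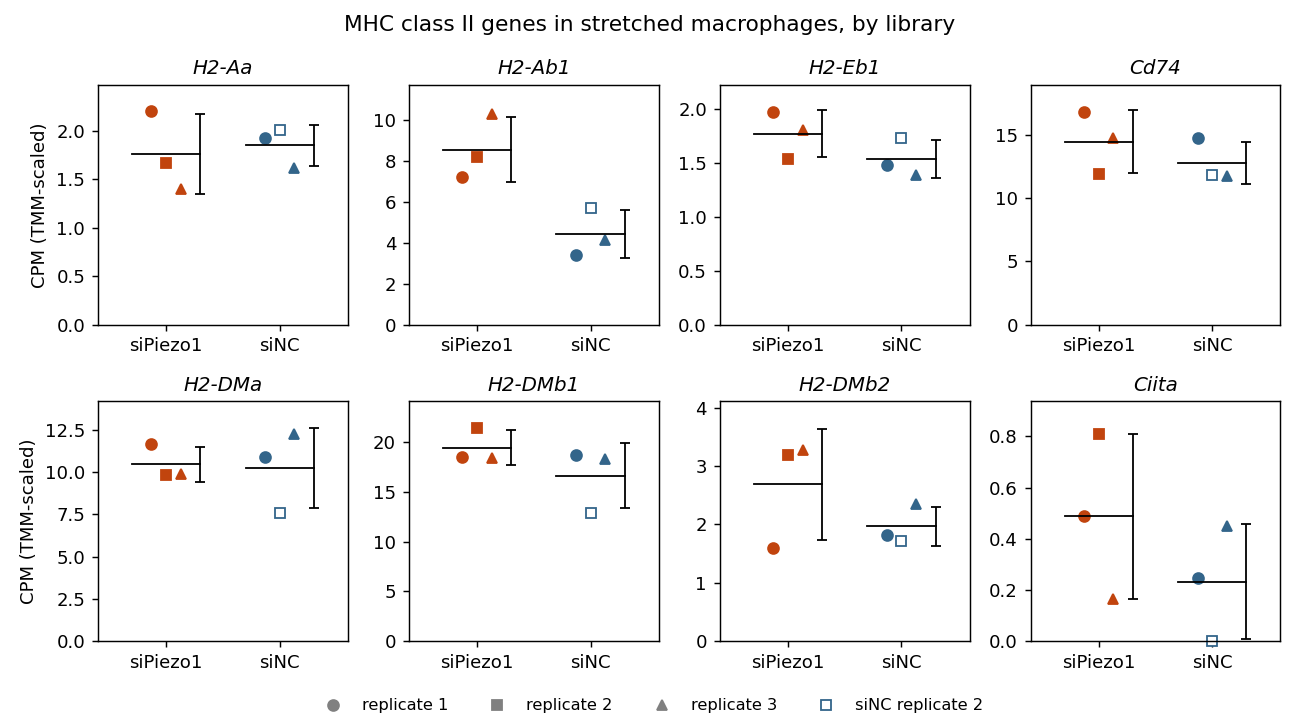
CPM of each class II gene by library, siPiezo1 left and siNC right, with the mean (line) and SD (bar) of 3 libraries and siNC replicate 2 as an open square. H2-Ab1 is the gene whose groups separate, at 7.21 CPM or more in siPiezo1 and 5.73 CPM or less in siNC.

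The DM molecule, the peptide exchanger, is made of an alpha chain from H2-DMa and a beta chain from either of a pair of sister genes. H2-DMb1 stood at 18.5, 21.4 and 18.4 CPM in siPiezo1 and at 18.7, 12.8 and 18.3 CPM in siNC. The low siNC value was that of siNC 2, and the log2 fold change of 0.23 ± 0.17 became 0.07 ± 0.12 without it (SE). H2-DMb2 was lower throughout, at 1.59, 3.19 and 3.27 CPM in siPiezo1 and 1.83, 1.72 and 2.35 CPM in siNC, with a log2 fold change of 0.45 ± 0.35 (SE). The lowest H2-DMb2 value was in siPiezo1 1, so the groups overlapped. Transcripts of the sister genes match at 95.7% over 1081 bases, so the split of fragments between them is uncertain. Their sum was 20.1, 24.6 and 21.6 CPM in siPiezo1 and 20.5, 14.5 and 20.7 CPM in siNC.

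H2-DMa stood at 11.7, 9.84 and 9.86 CPM in siPiezo1 and at 10.9, 7.61 and 12.2 CPM in siNC. The siNC values lay on both sides of the siPiezo1 values. The log2 fold change was 0.03 ± 0.21 with all libraries and -0.15 ± 0.16 without siNC 2 (SE), so its sign turned. The beta to alpha ratio within DM was 2.03, 2.95 and 2.58 per kilobase in siPiezo1 and 2.22, 2.25 and 1.99 in siNC (exact permutation p = 0.3), and overlapped between groups. The remaining ratios, H2-DMb2 over H2-DMb1 and H2-DMa over H2-Aa, had exact permutation p of 0.7 and 0.8. Exons of Brd2, on the opposite strand, cover 10.4% of the annotated exon bases of H2-DMa, and whether counting used the strand is not given in the sources used here. Brd2 averaged 223 ± 6.61 CPM in siPiezo1 and 217 ± 27.9 CPM in siNC (SD, n = 3).

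Ciita, the coactivator on which class II transcription depends, was near the limit of detection. It stood at 0.489, 0.810 and 0.164 CPM in siPiezo1 and at 0.247, 0 and 0.449 CPM in siNC, or 9.33, 16.2 and 2.93 fragments in siPiezo1 and 3.98, 0 and 8.00 in siNC. The groups overlapped, and the count of 0 in siNC 2 allows up to 0.15 CPM (3 fragments, counting error only). The log2 fold change was 1.08 ± 1.31 with all libraries and 0.48 ± 0.89 without siNC 2 (SE), and it depends on the prior count added by the fit, so neither a change nor its absence was detectable at this depth. Dexi overlaps 3.45% of the Ciita exon bases on the opposite strand and averaged 7.06 ± 1.19 CPM in siPiezo1 and 5.28 ± 1.54 CPM in siNC (SD, n = 3).

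Summed over the 8 genes, class II transcripts made 60.4, 58.6 and 60.0 CPM in siPiezo1 and 53.2, 43.5 and 52.3 CPM in siNC. The sums did not overlap, and siNC 2 was lowest. With siNC 2 included, H2-Ab1 supplied 4.15 of the 9.98 CPM between the group means. Without H2-Ab1 the sums were 53.2, 50.4 and 49.6 CPM in siPiezo1 and 49.8, 37.7 and 48.1 CPM in siNC. These sums overlapped, and siNC 2 was again the lowest.

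**Figure D4:**
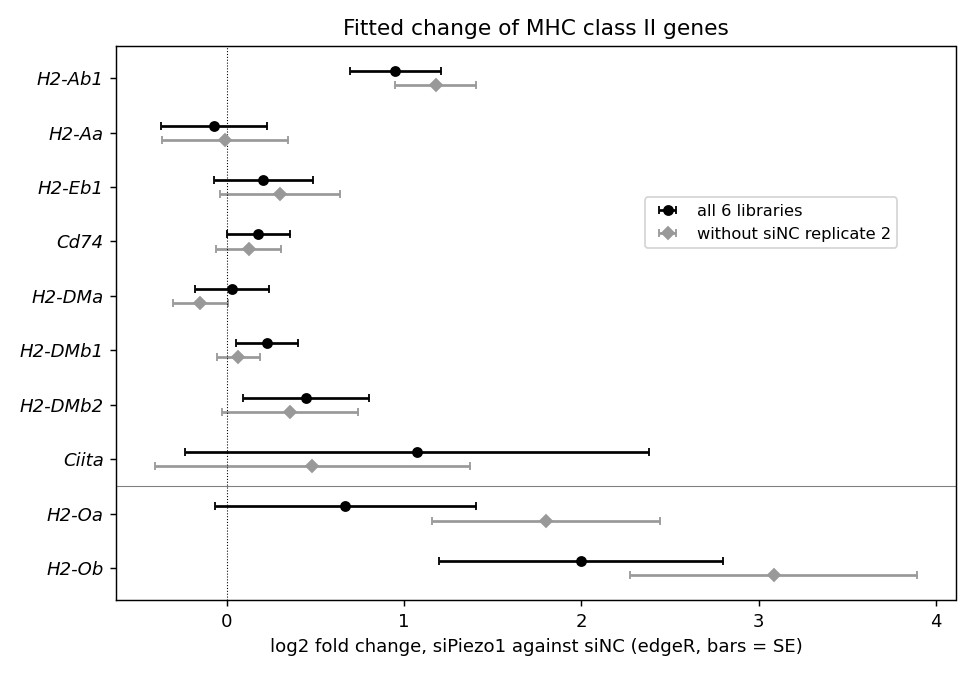
Log2 fold changes of siPiezo1 against siNC from edgeR with their standard errors, for all 6 libraries (black) and without siNC replicate 2 (grey). H2-Ab1 lies at 0.95 and 1.18, H2-Aa and H2-DMa lie near 0, and the DO chains below the line have the widest shifts between the fits.

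The DO molecule, encoded by H2-Oa and H2-Ob, restrains DM and is known mainly from B cells. H2-Ob stood at 0.545, 1.17 and 0.702 CPM in siPiezo1 and at 0.066, 0.410 and 0.120 CPM in siNC. Each siPiezo1 library was above each siNC library, as for 6.24% of all genes, but siNC 1 and 3 held only 1.06 and 2.13 fragments. H2-Ob was 1 of the 3 other class II chain genes tested. It was the only 1 of them without overlap, and the only 1 with an unadjusted p under 0.05 (edgeR quasi-likelihood). Over all genes 2.52% were higher at that p. The log2 fold change was 2.00 ± 0.80 (SE, unadjusted p = 0.0428, Benjamini-Hochberg adjusted p = 0.978, edgeR quasi-likelihood), and 3.09 ± 0.81 without siNC 2 (SE, Benjamini-Hochberg adjusted p = 0.125, edgeR quasi-likelihood). H2-Oa stood at 0.741, 0.651 and 1.35 CPM in siPiezo1 and at 0.280, 1.19 and 0.239 CPM in siNC, with siNC 2 among the siPiezo1 values. Its log2 fold change was 0.67 ± 0.74, or 1.80 ± 0.64 without siNC 2 (SE, Benjamini-Hochberg adjusted p = 0.241, edgeR quasi-likelihood). H2-Eb2, a further beta chain gene, was at or below 0.251 CPM in every library. In the GENCODE M21 gene order on chromosome 17, H2-Ob, H2-Ab1, H2-Aa and H2-Eb1 follow each other, while H2-DMb1, H2-DMb2 and H2-DMa lie together beyond Psmb9, Tap1, Psmb8 and Tap2.

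Dendritic cells and B cells also express class II and DO genes, and their markers were read beside these results. The 12 dendritic cell markers summed to 6.92 to 11.8 CPM in siPiezo1 and 14.9 to 22.0 CPM in siNC, with 2 of the 12 at 0 and 8 under 1 CPM in every library. Most of the sum came from Itgax, at 3.53 to 5.70 CPM in siPiezo1 and 6.49 to 10.5 CPM in siNC, Fscn1 and Clec10a. Of the 6 dendritic cell markers tested, 0 passed the threshold and 5 were below 0. For 4 of them the groups did not overlap, with siPiezo1 lower, as for 5.65% of all genes. Of their defining genes, Flt3 was at 0 in 5 of the 6 libraries, and Zbtb46 was at or below 0.209 CPM in all 6. The 10 B cell markers summed to 11.1 to 12.1 CPM in siPiezo1 and 13.01 to 14.5 CPM in siNC, mostly Cd22 and Cd79b, with 7 of the 10 under 1 CPM in every library. Pax5, a defining B cell factor, was at 0 in all libraries. The part of such cells in the class II values was not tested.

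The list of promoter factors, which holds the factors that carry CIITA on class II promoters and the class I coactivator Nlrc5, had 0 of 9 genes past the threshold. Their median log2 fold change was -0.10, with 4 of 9 above 0, or 2 of 9 without siNC 2. Rfx5, the X box subunit, had 0.09 ± 0.13, and the partner subunits Rfxap and Rfxank had -0.18 ± 0.13 and -0.14 ± 0.54 (SE). Rfxank was at 5.16, 9.17 and 9.42 CPM in siPiezo1 and 11.4, 2.75 and 12.1 CPM in siNC, and its lowest library was siNC 2. Of the Y box subunits, Nfya was at 91.4, 93.7 and 49.0 CPM in siPiezo1 and 109, 96.7 and 108 CPM in siNC. Its groups did not overlap, nor did those of Rfxap, both with siPiezo1 lower, as for 5.65% of all genes. The log2 fold changes were -0.42 ± 0.24 for Nfya, -0.10 ± 0.16 for Nfyb and 0.06 ± 0.11 for Nfyc (SE). That of Nfya was -0.18 without siPiezo1 3, its lowest library. Those of the X2 box binders Creb1 and Atf1 were 0.07 ± 0.18 and -0.23 ± 0.12, and Nlrc5, which acts on class I promoters as CIITA does on class II, had 0.11 ± 0.21 (SE).

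Interferon gamma signalling, the usual inducer of Ciita, had 0 of 12 genes past the threshold and a median of 0.05. Irf8, a transcription factor of the myeloid lineage, stood at 90.3, 158 and 154 CPM in siPiezo1 and at 101, 65.4 and 89.5 CPM in siNC (log2 fold change 0.65 ± 0.25, SE, unadjusted p = 0.0362, edgeR quasi-likelihood). The library siPiezo1 1 lay within the siNC range. Irf2 had 0.24 ± 0.12, the receptor chain Ifngr1 -0.40 ± 0.23 and the feedback inhibitor Socs3 -0.88 ± 0.79 (SE). Socs3 stood at 272 CPM in siNC 2, against 35.0 and 38.6 CPM in the other siNC libraries and 56.4, 58.3 and 73.6 CPM in siPiezo1. Without siNC 2 Socs3 was higher in siPiezo1, at 0.77 ± 0.13 (SE, Benjamini-Hochberg adjusted p = 0.0351, edgeR quasi-likelihood), and it was the 1 gene of the 12 called. In that fit 0.645% of all genes were called higher and 0.45% lower.

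The endosomal proteases and their partners had 0 of 11 genes past the threshold, with log2 fold changes of -0.13 to 0.18. Of the 11, 9 were above 0 with all libraries and 4 without siNC 2. Ctss, the cathepsin that trims the invariant chain, averaged 3950 ± 382 CPM per kilobase in siPiezo1 and 3650 ± 1140 in siNC (SD, n = 3). Ctsz had 0.18 ± 0.08, the thiol reductase Ifi30 0.14 ± 0.11, the protease Sppl2a, which clears the last invariant chain fragment, 0.13 ± 0.12, and Ctsl 0.14 ± 0.14 (SE). Without siNC 2 Ctsl rose in siPiezo1 (0.31 ± 0.05, SE, Benjamini-Hochberg adjusted p = 0.0351, edgeR quasi-likelihood), and it was the 1 gene called there of the 11. Over all genes, 0.645% were called higher in that fit and 0.45% lower. The CPM of Ctsl was 1187, 1161 and 1140 in siPiezo1 and 940, 1297 and 929 in siNC.

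Class I presentation, the sister pathway, had 0 of 18 genes past the threshold, with 13 above 0 and a median of 0.08. Without siNC 2 only 5 of the 18 were above 0, and the median was -0.10. B2m, the class I light chain, stood at 5633, 5511 and 5564 CPM in siPiezo1 and at 4965, 3799 and 4697 CPM in siNC. The peptide transporter gene Tap1 had 90.6, 86.5 and 76.2 CPM in siPiezo1 and 76.1, 55.7 and 65.4 CPM in siNC, and the peptide trimming gene Erap1 had 191, 207 and 177 CPM in siPiezo1 and 165, 148 and 159 CPM in siNC. These 3 genes did not overlap between groups, and on the log2 scale B2m differed by 0.31 ± 0.12, Tap1 by 0.36 ± 0.13 and Erap1 by 0.28 ± 0.09 (SE). They were 3 of the 18, beside 6.24% of all genes with siPiezo1 higher. Another 3 of the 18, the chaperone genes Calr, Canx and Pdia3, did not overlap with siPiezo1 lower, beside 5.65% of all genes. Pdia3 had 532, 554 and 549 CPM in siPiezo1 and 609, 651 and 585 CPM in siNC (log2 fold change -0.17 ± 0.08, SE), and Calr and Canx are named after their values were seen. The heavy chain H2-K1 was lowest in siNC 2, at 573 CPM against 1320 and 1354 CPM in the other siNC libraries.

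Costimulatory genes, whose products act beside the class II molecule at the T cell contact, had 0 of 9 past the threshold and 8 of 9 below 0. Cd83, which is known to keep class II molecules at the surface, stood at 5.37, 5.93 and 4.80 CPM in siPiezo1 and at 8.66, 7.28 and 8.81 CPM in siNC. Icosl, a ligand of the T cell receptor ICOS, had 8.20, 6.61 and 7.59 CPM in siPiezo1 and 10.01, 11.3 and 10.5 CPM in siNC. For these genes and Pdcd1lg2, 3 of the 9, every siPiezo1 library was below every siNC library, as for 5.65% of all genes. The log2 fold changes were -0.62 ± 0.18 (unadjusted p = 0.0108) and -0.51 ± 0.16 (unadjusted p = 0.0145, SE, edgeR quasi-likelihood), and neither passed after adjustment. Cd80 had -0.17 ± 0.20, and Pdcd1lg2, under 0.6 CPM throughout, had -1.80 ± 1.25 (SE). Without siNC 2, 5 of the 9 were above 0, and Cd274, the gene of PD-L1, named here after its values were seen, was called higher (0.33 ± 0.06, SE, Benjamini-Hochberg adjusted p = 0.042, edgeR quasi-likelihood). Cd274 was the 1 gene of the 9 called in that fit, where 0.645% of all genes were called higher and 0.45% lower.

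Across these 5 lists, from promoter factors to costimulation, DESeq2 also called 0 genes with all libraries. At an unadjusted p under 0.05 in edgeR they held 0 promoter factors, 1 interferon gamma gene (higher), 0 endosomal genes, 3 class I genes (higher) and 2 costimulatory genes (lower), where 2.52% of all genes were higher and 2.41% lower.

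Among 8706 genes of at least 10 CPM, the 5 whose levels over the 6 libraries were most like the mean profile of H2-Aa, H2-Ab1, H2-Eb1 and Cd74 were Mrpl38, Poc5, Mplkip, Usp18 and Rnaset2b. Pearson's r was 0.978 to 0.990, over only 6 libraries and as a ranking of many genes, so it describes likeness alone. Mrpl38 stood at 25.9, 20.6 and 22.97 CPM in siPiezo1 and at 20.3, 22.1 and 18.9 CPM in siNC. It was highest in siPiezo1 1 and lowest in siNC 3, and its groups overlapped. The mean profile is not that of each of its genes. H2-Ab1 was lowest of its group in siPiezo1 1, at 7.21 CPM, and H2-Aa was highest there, at 2.21 CPM.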

How the data were processed

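Poly(A) RNA of 6 BMDM libraries was sequenced as paired ends on a NovaSeq instrument with dUTP strand marking, per the labels' protocols. The authors deposited an estimated count for each Ensembl gene, in whole numbers and not scaled between samples. Per the submitters' processing notes, cutadapt 1.9, HISAT2 2.0.4, StringTie 1.3.4d, DESeq2, edgeR and the build GRCm39 were named; the sources used here give no tool roles, annotation release or strand setting of the counting. Low values pile up near multiples of 3.75 to 3.77, so 1 fragment was worth about 4 counts. The fixed design assumed counts, and the same test was used on the estimated counts.

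Symbols came from GENCODE M21, which matched 55141 of 55401 identifiers. mRNA length is that of the longest principal transcript there, and overlaps and gene order are on GRCm38. Samples were grouped by title, and 0 columns were left unmapped. Genes were kept by filterByExpr, scaled by TMM and fitted with edgeR 4.0.16 (R 4.3.3; quasi-likelihood, robust, group as the only term), with Benjamini-Hochberg adjustment over all 15959 genes and a threshold of 0.05. SE was taken as the log2 fold change over the root of the F statistic. No source names separate cultures, so the p-values reflect spread among these libraries, possibly technical. Copies were found with BLAST 2.17.0 (at least 85% identity over 200 bases). The fit was tested on simulated data.

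The members, the other lists and the ratios were chosen with earlier results of these data known. Named genes are the 8 members, Piezo1 and every tested gene of the other class II chains and promoter factors. Added are up to 4 genes with the smallest p of each other pathway list, and the 5 genes most like the class II profile. Cd4, Cd274, Adgre1, Fcgr1, Cd14, Calr and Canx were named after their values were seen. Ctss, H2-K1, the untested H2-Ea, the overlap partners Brd2 and Dexi and the other single cell type markers lie outside these rules. Alternatives were 15, among them DESeq2 1.42.0, limma-voom (limma 3.58.1), other scalings and filters, counts divided by 4, summed H2-DMb rows, a replicate block and each library left out.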

Additional observations from a re-analysis of the deposited data

How the results depend on the processing

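Under the 15 alternatives 0 class II genes passed the threshold, and the median log2 fold change of the members stayed between 0.19 and 0.305. Of 117 values for the 8 genes, 114 kept their direction and side of the threshold; H2-Aa reversed once (-0.268 to 0.0683 with a library left out) and H2-DMa 2 times (-0.149 to 0.176). H2-Ab1 kept its direction throughout (0.797 to 1.18), with an adjusted p of 0.0583 to 1. Over all genes, 1 was called with all libraries, 0 with library totals alone, 88 with DESeq2, 0 with the replicate block, and 0 to 180 with a library left out, the 180 without siNC 2. With the replicate block H2-Ab1 had an unadjusted p of 0.0126. Piezo1 passed the threshold under 2 of the 15 alternatives and kept its direction throughout (-1.09 to -0.734 with a library left out). Same-numbered libraries deviated from their group means with correlations of 0.0296, -0.062 and -0.0861, so the numbers were not taken to pair samples. Rfxank reversed with limma-voom (0.134), the replicate block (0.0377) and with a library left out (-0.574 to 0.16). Other reversals came with a library left out: H2-Eb2 (-0.529 to 0.706), Creb1 (-0.0968 to 0.234), Nlrc5 (-0.11 to 0.254), Socs3 (-1.31 to 0.766), Cd80 (-0.328 to 0.0783) and Cd274 (-0.0787 to 0.335). The cause was not tested. Ciita had no value with at least 50 counts in 3 libraries or with counts divided by 4. With a library left out, Cd74 ranged from 0.0577 to 0.304, H2-Eb1 from 0.122 to 0.30, H2-DMb1 from 0.066 to 0.317 and H2-DMb2 from 0.282 to 0.714. Depth limits Ciita, H2-Oa, H2-Ob, H2-Eb2 and Pdcd1lg2, which held at most 23.9 fragments in any library.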

Other observations

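Of the 9 macrophage markers, 0 passed the threshold with all libraries. Without siNC 2, 3 of the 9 were above 0 and 6 below, with 0 called higher and 3 called lower, where 0.645% of all genes were called higher and 0.45% lower. At an unadjusted p under 0.05 without siNC 2, 1 was higher (Cd14, 0.24 on the log2 scale) and 4 were lower. Over all genes, 7.54% were higher and 6.71% lower at that p. The receptor genes Adgre1 and Fcgr1, named after their values were seen as was Cd14, were among those called lower in siPiezo1 without siNC 2. Their log2 fold changes in that fit were -0.31 and -0.46 (Benjamini-Hochberg adjusted p = 0.0376 and 0.0283, edgeR quasi-likelihood). With all libraries they were -0.16 and -0.19, and neither gene passed. For both genes siNC 2 was below every siPiezo1 library. Fcgr1 stood at 124, 141 and 138 CPM in siPiezo1 and at 179, 91.1 and 189 CPM in siNC. Cd4, the gene of the co-receptor for class II on T cells, was also named after its values were seen. It was at 4.70, 5.39 and 1.88 CPM in siPiezo1 and at 16.5, 1.83 and 13.2 CPM in siNC. Of the 7 T cell markers, 5 were at 0 in all 6 libraries (Cd3e, Cd3d, Cd3g, Cd8a and Trac). Lck was above 0 in every library but siNC 1, at up to 0.807 CPM in siNC 2. The log2 fold change of Cd4 was -1.40 ± 0.77 (SE) and did not pass the test.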
